A study of Mus musculus with 27 samples.

Results

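Lungs of mice given the glucocorticoid dexamethasone were compared with lungs of mice given antimiR-155, an antisense oligonucleotide directed at miR-155. The members are the 6 libraries labelled Dexamethasone treated and the 6 labelled AntimiR-155 treated, 12 of the 27 libraries of the series. They were taken by label, and earlier results of these data were known when they were chosen. Every mouse was BALB/c AnNHsd, aged 87 days, and gave 1 library of ribosome-depleted, total RNA of the left lobe of the lung. Dexamethasone was given intraperitoneally in 3 doses of 3 mg/kg, and antimiR-155 intravenously in 3 doses of 2 mg/kg inside TheraSilence lipid nanoparticles. Both were given on days 11, 18 and 25 of a protocol of 35 days. The dexamethasone mice were sensitized with house dust mite extract plus the mucosal adjuvant cyclic di-GMP, per their labels. The labels of the antimiR-155 mice do not state sensitization in words. The reference libraries were 10 labelled CDG_HDM sensitized, from mice with that sensitization and no drug, and 5 labelled Unsensitized, from saline mice. No group received empty nanoparticles or a vehicle, so agent, dose, route and carrier cannot be told apart. The comparison asks how lung RNA differed between the drugs, over linear RNA, circular RNA, gene families and markers of cell types.

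Dexamethasone binds the glucocorticoid receptor, which enters the nucleus, raises genes such as Fkbp5, Tsc22d3 and Per1, and restrains many inflammatory genes. In asthma, glucocorticoids are the standard treatment, and severe asthma often responds poorly to them. MiR-155 is a microRNA of activated lymphocytes and myeloid cells that pairs through its seed with sites in messenger RNAs and lowers their output, for example that of Socs1 and Inpp5d. An antimiR is a complementary oligonucleotide that binds the microRNA and keeps it from its targets. Cyclic di-GMP is a bacterial second messenger sensed by STING, a pathway that leads to type I interferon.

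Both mature arms of mouse miR-155 are shown because one drug is directed at this microRNA. The capitals mark the seed, bases 2 to 8 from the 5′ end, and the sequences are those of RefSeq (GRCm38.p6).
mmu-miR-155-5p, chr16:84714143-84714165, + strand: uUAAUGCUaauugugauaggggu
mmu-miR-155-3p, chr16:84714182-84714202, + strand: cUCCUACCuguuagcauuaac
The host transcript of miR-155 and the microRNA itself were not analysed here, so how far the oligonucleotide lowered its target was not tested.

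Values are in TPM, the relative abundance of a transcript, which is a share of the transcripts in a library, so read depth is unknown. The tissue markers were present in all 12 libraries. Sftpc of alveolar type 2 cells had 17162 to 22103 TPM with dexamethasone and 12703 to 18795 TPM with antimiR-155, and Scgb1a1, Ager, Cdh5 and Foxj1 were also above 0 throughout. Of these libraries, 3 stood apart in the circular table, where a single entry for Sftpc held 17.7% of all TPM in AntimiR-155 treated 3, 18.8% in AntimiR-155 treated 4 and 19.8% in Dexamethasone treated 4. It held 6.15% in Dexamethasone treated 2 and less in the others. The linear table summed to 629350 to 767970 TPM with dexamethasone and to 542260 to 770990 TPM with antimiR-155. These sums differed by less than the spread between libraries (exact permutation test, two-sided, p = 0.491, n = 6 and 6, adjusted p = 0.684 over 4 whole-library tests). A smaller linear sum lowers the TPM of every linear gene in that library. The calls and the values of several lists are given with and without the 3 libraries of high circular Sftpc.

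**Figure D1:**
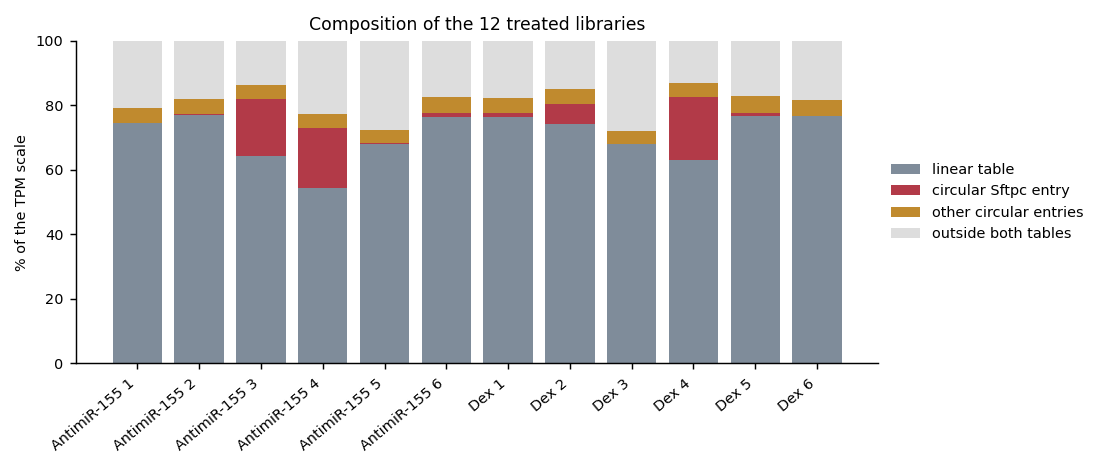
Share of the TPM scale (%) held by the linear table, the circular Sftpc entry, all other circular entries and transcripts outside both tables, 1 bar per treated library. The circular Sftpc entry is large in AntimiR-155 treated 3 and 4 and Dexamethasone treated 4, and the linear share is smallest in AntimiR-155 treated 4.

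The drug groups differed in a small set of linear genes, among them granule, cytotoxic and interferon-induced genes that were lower with dexamethasone. Of 17437 linear genes tested, 14 passed an adjusted p of 0.05 (0.0803%), of which 3 were higher and 11 lower with dexamethasone. The test was limma on log2(TPM + 1) with Benjamini-Hochberg adjustment, and a difference is dexamethasone minus antimiR-155, given with its standard error. At an unadjusted p under 0.05, 1037 genes were higher (5.95%) and 248 lower (1.42%). The 6 and 6 libraries did not overlap for 73 genes on the higher side (0.419%) and for 15 on the lower side (0.086%). The 95% interval of the difference lay within 2-fold for 17262 genes (99.0%) and within 1.5-fold for 16495 genes (94.6%). The split by direction depended on the scale. With each linear table rescaled to a common sum, 29 genes were called higher and 32 lower, with median-of-ratios scaling 50 and 53, and with quantile normalization 61 and 51. All 14 genes were among the calls under each of these scalings, and rescaling to a common sum moved the median difference of all genes from 0.06 to 0.0006. Without the 3 libraries of high circular Sftpc, the calls were 3, namely Ngp, Ifi27l2a and Camp.

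Libraries of the antimiR-155 group differed more among themselves on the deposited scale. The median standard deviation of log2(TPM + 1) over genes was 0.14 with dexamethasone and 0.22 with antimiR-155, and it was larger with antimiR-155 in 86.4% of genes. On the common-sum scale the medians were 0.10 and 0.11, and the share fell to 54.9%.

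**Figure D2:**
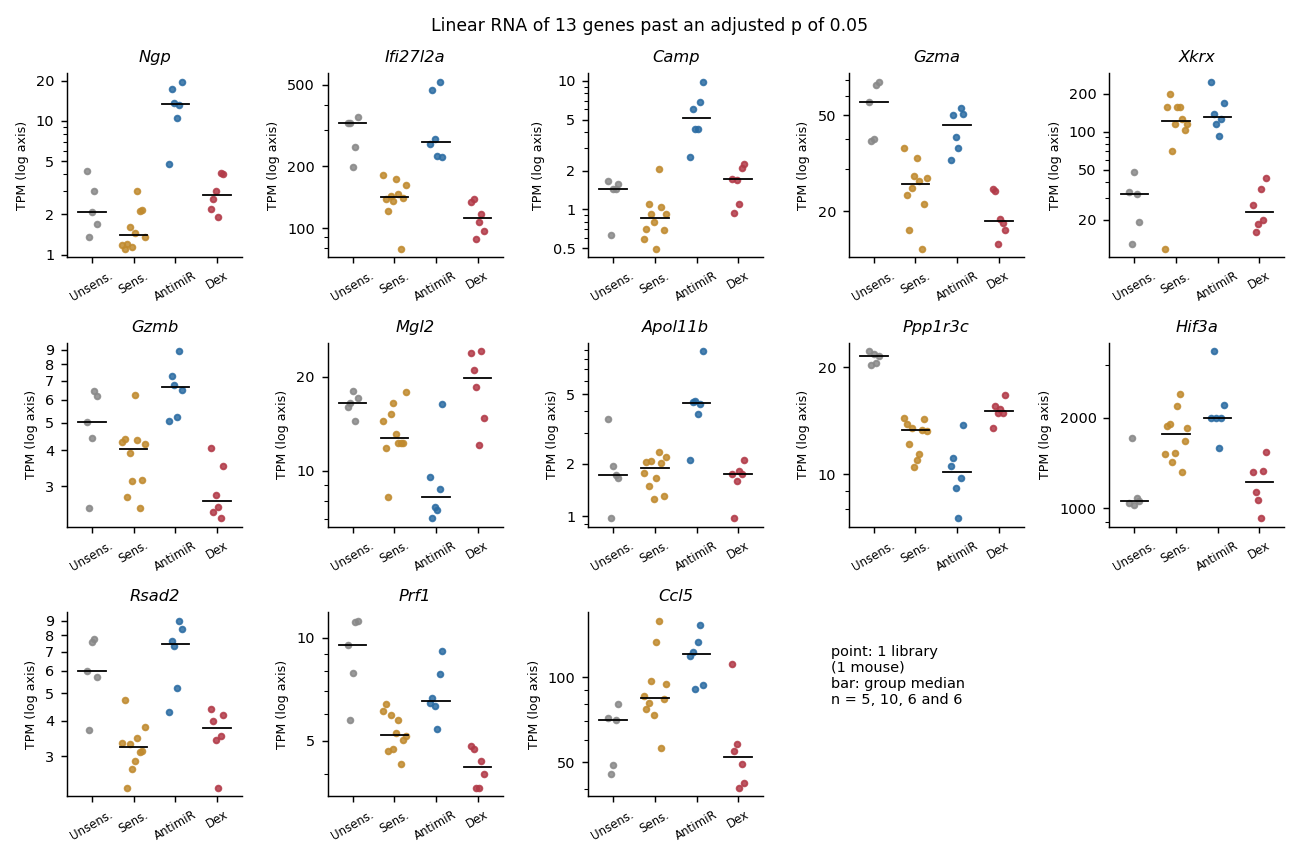
Linear TPM (log axis) of 13 called genes in each library of the 4 groups, with the group median as a bar. The dexamethasone and antimiR-155 libraries do not overlap for Ngp, Ifi27l2a, Camp, Gzma, Xkrx, Gzmb, Hif3a and Prf1.

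Ngp, a granule gene of neutrophils, had the smallest p-value, followed by Ifi27l2a (described below) and Camp, another granule gene. Ngp (chr9:110419747-110423012, + strand), which encodes neutrophilic granule protein, had 1.91, 2.78 and 4.04 TPM as lowest, median and highest value with dexamethasone and 4.78, 13.4 and 19.7 TPM with antimiR-155. The groups did not overlap, and AntimiR-155 treated 1 was the lowest of its group. Ngp was lower with dexamethasone by a log2 difference of -1.76 ± 0.23 (SE; adjusted p = 0.000179). Camp (chr9:109847379-109849617, - strand) encodes the antimicrobial peptide cathelicidin, stored in the same granules. It had 0.94, 1.71 and 2.27 TPM with dexamethasone and 2.58, 5.11 and 9.86 TPM with antimiR-155, again with no overlap, and its log2 difference was -1.26 ± 0.19 (adjusted p = 0.00154). The sensitized libraries reached 2.97 TPM for Ngp and 2.05 TPM for Camp, which places the antimiR-155 group above the sensitized group. Against the sensitized libraries, where 0.103% of genes passed with antimiR-155 and 0.00573% with dexamethasone, Ngp was higher by 2.36 ± 0.20 with antimiR-155 (adjusted p = 2e-08). With dexamethasone the same difference was 0.59 ± 0.20 (adjusted p = 0.739). These contrasts share the sensitized libraries.

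Of 13 tested neutrophil markers, 2 were called lower with dexamethasone (Ngp and Camp), against 0.0803% of all genes called in either direction. At an unadjusted p under 0.05, 7 were lower, against 1.42% of all genes, and none was higher. The median difference over the list was -0.38, against 0.06 over all genes. The calprotectin subunits S100a8 and S100a9, abundant proteins of neutrophils, differed by -0.96 ± 0.27 (adjusted p = 0.255) and -0.85 ± 0.28 (adjusted p = 0.354). S100a8 had 131, 178 and 388 TPM with dexamethasone and 233, 372 and 717 TPM with antimiR-155, so the groups overlapped. The intervals of Cxcr2 and Csf3r, receptors on the list, included 0. Cxcr2, a chemokine receptor, differed by 0.12 ± 0.13, with a 95% interval of -0.14 to 0.38. Csf3r, the G-CSF receptor, differed by 0.04 ± 0.17, with a 95% interval of -0.30 to 0.38. Summed over the list, the level was 449 to 1115 TPM with dexamethasone and 734 to 1928 TPM with antimiR-155. It was 283 to 701 TPM in the sensitized libraries and 653 to 1327 TPM in the unsensitized libraries. Dexamethasone treated 1 had the highest sum of its group and AntimiR-155 treated 2 of its own. In whole lung, a difference in the number of cells of a type and in RNA per cell cannot be told apart.

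Among cytotoxic genes of NK cells and T cells, Gzma, Gzmb and Prf1 were lower with dexamethasone than with antimiR-155. Gzma (chr13:113093825-113100981, - strand) encodes granzyme A, a protease of cytotoxic granules. It had 14.7, 18.2 and 24.8 TPM with dexamethasone and 32.6, 45.4 and 53.4 TPM with antimiR-155, without overlap, and differed by -1.14 ± 0.19 (adjusted p = 0.00443). Gzmb (chr14:56258838-56262260, - strand), for granzyme B, had 2.31, 2.66 and 4.07 TPM with dexamethasone and 5.08, 6.64 and 8.89 TPM with antimiR-155. These groups did not overlap either, and the difference was -0.95 ± 0.17 (adjusted p = 0.00893). Prf1 (chr10:61297833-61304680, + strand) encodes perforin, the pore former that lets granzymes into a target cell. Its TPM was 3.64, 4.18 and 4.82 with dexamethasone and 5.42, 6.56 and 9.15 with antimiR-155, without overlap, and the difference was -0.61 ± 0.12 (adjusted p = 0.0366). Unsensitized libraries had 39.0 to 68.9 TPM of Gzma and sensitized libraries 14.0 to 36.4 TPM. The antimiR-155 range overlapped both, and the dexamethasone range lay within that of the sensitized libraries.

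Of 10 tested markers of NK and cytotoxic cells, 3 were called lower, against 0.0803% of all genes called in either direction. Lower at an unadjusted p under 0.05 were 8, against 1.42% of all genes. On the lower side 5 did not overlap, against 0.086% of all genes. The median over the list was -0.60. Ncr1, the activating receptor NKp46 of NK cells, had 7.00, 7.50 and 9.04 TPM with dexamethasone and 9.82, 12.4 and 14.8 TPM with antimiR-155, and differed by -0.60 ± 0.14 (adjusted p = 0.0811). Klrb1c, a lectin-like receptor gene of NK cells, was the exception in sign, with 0.14 ± 0.14 and overlapping groups. Summed TPM of the list was 78.1 to 119 with dexamethasone and 127 to 164 with antimiR-155, so every antimiR-155 library was above every dexamethasone library. The sensitized libraries had 79.6 to 134 TPM and the unsensitized libraries 103 to 192 TPM. The Klr receptor family, lectin-like receptors of NK cells and some T cells, had 11 of 19 tested members lower at an unadjusted p under 0.05. The share over all genes was 1.42%. None of the family was higher at that threshold, and the median was -0.34. Klrg1, an inhibitory receptor of that family, did not overlap and differed by -0.59 ± 0.13 (adjusted p = 0.0576). Without the 3 libraries of high circular Sftpc, 8 of the 10 cytotoxic markers were still lower at an unadjusted p under 0.05 and 0 were called. Of all 17437 genes, 491 were lower at that threshold and 3 were called lower. With the tables rescaled to a common sum, or with the circular Sftpc entry taken out of the total, 5 of the 10 were called lower. Over all 17437 genes, 32 and 16 were called lower in these settings. On the common-sum scale Ncr1 and Klrg1 were among the calls (adjusted p = 0.011 and 0.00816).

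**Figure D3:**
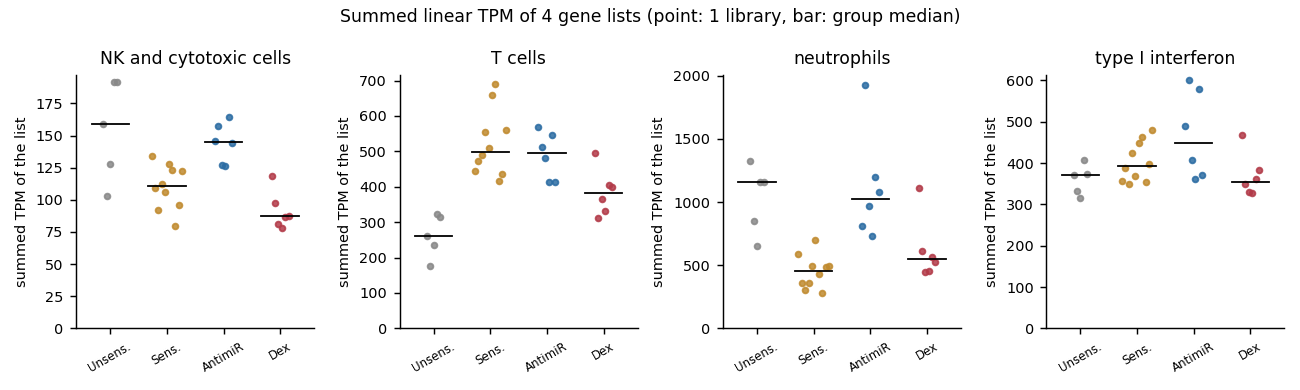
Summed linear TPM of the NK and cytotoxic, T cell, neutrophil and type I interferon lists, 1 point per library and the group median as a bar. The 6 antimiR-155 libraries lie above the 6 dexamethasone libraries for the cytotoxic list, and the groups overlap for the other lists.

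Markers of red blood cells and fat also had negative list medians, -0.42 and -0.56. Summed over 7 red blood cell genes, dexamethasone libraries had 8040 to 13936 TPM and antimiR-155 libraries 11549 to 29853 TPM, with the highest sum in AntimiR-155 treated 6. Of the 7, 5 were lower at an unadjusted p under 0.05, against 1.42% of all genes. Without the 3 libraries of high circular Sftpc, none (0) was, against 491 of all 17437 genes, and the list median was -0.39. Hba-a1, a globin, differed by -0.39 ± 0.26. Adipocyte markers ranged more widely, at 57.1 to 140 TPM with dexamethasone and 42.3 to 542 TPM with antimiR-155, with AntimiR-155 treated 5 the highest. Of 8 adipocyte markers, 1 was lower at an unadjusted p under 0.05, against 1.42% of all genes. Without the 3 libraries of high circular Sftpc, 5 of the 8 were, against 491 of all 17437 genes, and the list median was -1.07. The part of blood or fat content in the lower granule and cytotoxic genes was not tested.

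The interferon-induced genes Ifi27l2a and Rsad2 were lower with dexamethasone than with antimiR-155. Ifi27l2a (chr12:103442167-103443680, - strand), an interferon-induced gene of a small mitochondrial protein family, had 88.1, 112 and 138 TPM with dexamethasone and 223, 264 and 518 TPM with antimiR-155. No library overlapped, and AntimiR-155 treated 2 and 5 were the highest. The difference was -1.45 ± 0.20 (adjusted p = 0.000266). Rsad2 (chr12:26442746-26456452, - strand) encodes viperin, an antiviral enzyme. Its TPM was 2.32, 3.76 and 4.39 with dexamethasone and 4.28, 7.47 and 8.99 with antimiR-155, with an overlap made by AntimiR-155 treated 1, and it differed by -0.76 ± 0.15 (adjusted p = 0.0366). Of 21 tested type I interferon genes, 1 was called lower, against 0.0803% of all genes called in either direction. At an unadjusted p under 0.05, 12 were lower, against 1.42% of all genes. All 21 differences were negative, with a median of -0.29. Irf7, the factor that amplifies interferon production, had 13.9, 18.5 and 22.3 TPM with dexamethasone and 20.2, 27.7 and 47.7 TPM with antimiR-155, and differed by -0.72 ± 0.16 (adjusted p = 0.0789). Oas2, which makes the activator of RNase L, did not overlap and differed by -0.61 ± 0.14 (adjusted p = 0.0779).

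The list was not uniform. Ifit1 and Isg15, classic interferon-induced genes, differed by -0.29 ± 0.11 and -0.31 ± 0.13 with overlapping groups, and Mx1 by -0.20 ± 0.20. In the Ifit and Oas family, 9 of 13 tested members were lower at an unadjusted p under 0.05, against 1.42% of all genes. None was higher, and the median was -0.30. On the common-sum scale 4 genes of the interferon list were called lower, against 32 of all 17437 genes. Without the 3 libraries, 17 of the list were lower at an unadjusted p under 0.05, against 491 of all 17437 genes, with 0 called. Against the sensitized libraries, Rsad2 was higher by 0.88 with antimiR-155 (adjusted p = 0.00231) and by 0.11 with dexamethasone (adjusted p = 1). Ifi27l2a was higher by 1.14 with antimiR-155 (adjusted p = 0.00206) and differed by -0.31 with dexamethasone (adjusted p = 1). Unsensitized libraries had 200 to 347 TPM of Ifi27l2a and sensitized libraries 79.1 to 181 TPM. The antimiR-155 range overlapped that of the unsensitized libraries, and the dexamethasone range lay within that of the sensitized libraries. Of 10 STING pathway genes, 1 was lower at an unadjusted p under 0.05, against 1.42% of all genes. The median of that list was -0.0034, and Tmem173, which encodes STING, differed by 0.022 ± 0.12.

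**Figure D4:**
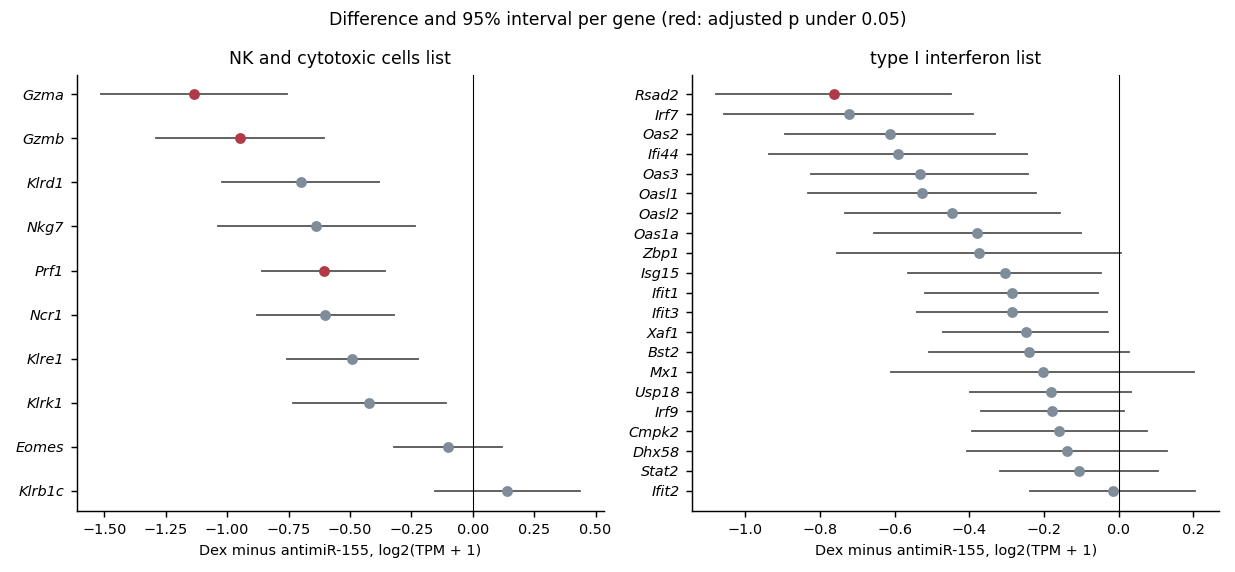
Difference in mean log2(TPM + 1), dexamethasone minus antimiR-155, with its 95% interval for each tested gene of the NK and cytotoxic list (10 genes) and the type I interferon list (21 genes). Red points mark adjusted p under 0.05 (Gzma, Gzmb, Prf1 and Rsad2), and the only point right of 0 is Klrb1c.

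The promoters of 3 called genes held the core of the interferon-stimulated response element (ISRE), searched as GAAA, any 2 bases, then GAAA, on both strands of windows of 300 bases around the start site. The 80 bases around each match, all upstream of the start site, are printed 5′ to 3′ on the gene's strand (RefSeq, GRCm38.p6), with the matches in capitals, and with Ifit1 and Isg15 for comparison. A match on the other strand reads as the reverse complement, and overlapping matches run together.
Rsad2 promoter, chr12:26456528-26456607, - strand: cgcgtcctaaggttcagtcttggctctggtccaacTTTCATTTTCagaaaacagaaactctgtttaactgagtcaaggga
Apol11b promoter, chr15:77643292-77643371, - strand: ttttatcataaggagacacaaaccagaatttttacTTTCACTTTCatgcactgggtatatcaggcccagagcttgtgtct
Gzma promoter, chr13:113101034-113101113, - strand: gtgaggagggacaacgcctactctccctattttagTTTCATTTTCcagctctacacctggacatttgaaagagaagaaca
Ifit1 promoter, chr19:34640759-34640838, + strand: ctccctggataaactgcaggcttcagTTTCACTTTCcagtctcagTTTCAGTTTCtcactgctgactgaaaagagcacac
Isg15 promoter, chr4:156200846-156200925, - strand: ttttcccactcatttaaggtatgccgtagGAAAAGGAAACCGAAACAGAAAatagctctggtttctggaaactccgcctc
The core was in 3.99% of the 27025 genes with a promoter in the table (3.44% of the 32851 windows of that length, since a gene can have several). It was in 8 of the 16 type I interferon genes with a promoter there, in 9 of 12 of the Ifit and Oas family, and in 3 of 11 called genes. The palindromic core of the glucocorticoid response element, ACANNNTGT, was in 7.9% of all those genes (6.85% of windows), in 5 of 25 glucocorticoid response genes and in 0 of 11 called genes. A match is a match of letters only.

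Xkrx had the largest difference of the 14. It belongs to the XK family, whose members include lipid scramblases of the plasma membrane, and lies at chrX:134149043-134162076 (- strand), where it overlaps Nox1 on the same strand, so the reads of these genes may not be fully separable. It had 16.0, 23.1 and 43.1 TPM with dexamethasone and 92.4, 131 and 250 TPM with antimiR-155, without overlap. The difference was -2.45 ± 0.43 (adjusted p = 0.00893), 5.46-fold on the log2(TPM + 1) scale. The dexamethasone libraries lay in the range of the unsensitized libraries (12.8 to 47.9 TPM), and 5 of the 6 antimiR-155 libraries in that of the sensitized libraries (11.7 to 199 TPM, median 121). AntimiR-155 treated 1, at 250 TPM, was above every sensitized library, and CDG_HDM sensitized 1, at 11.7 TPM, was below every dexamethasone library. Against the sensitized libraries Xkrx differed by -1.98 with dexamethasone (adjusted p = 0.0969) and by 0.46 with antimiR-155 (adjusted p = 0.718). Of 7 tested members of the XK family, Xkrx alone was called or lower at an unadjusted p under 0.05. Over all genes, 0.0803% were called in either direction and 1.42% were lower at that threshold. Xkr8, a scramblase of dying cells, differed by 0.074 ± 0.082.

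The other genes called lower with dexamethasone than with antimiR-155 were Hif3a, Ccl5 and Apol11b. Hif3a (chr7:17031507-17062427, - strand), a hypoxia-inducible factor subunit and a known glucocorticoid-responsive gene, had 926, 1223 and 1541 TPM with dexamethasone and 1590, 1996 and 3328 TPM with antimiR-155. The groups did not overlap, with AntimiR-155 treated 2 the highest, and the difference was -0.82 ± 0.16 (adjusted p = 0.0311). The annotation places a transcript, 4833404L02Rik, on the other strand of the gene. Ccl5 (chr11:83525778-83530518, - strand) encodes a chemokine that draws T cells and eosinophils. It had 40.5, 52.0 and 111 TPM with dexamethasone and 90.8, 121 and 153 TPM with antimiR-155. Dexamethasone treated 1, at 111 TPM, was the single dexamethasone library inside the antimiR-155 range, and the difference was -1.06 ± 0.21 (adjusted p = 0.0366). Apol11b (chr15:77633946-77643286, - strand), of the apolipoprotein L family, had 0.971, 1.75 and 2.11 TPM with dexamethasone and 2.09, 4.45 and 8.85 TPM with antimiR-155. It overlapped only between AntimiR-155 treated 1 and Dexamethasone treated 6 and differed by -1.03 ± 0.18 (adjusted p = 0.00893).

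Among the 3 genes called higher with dexamethasone were Mgl2 and Ppp1r3c. Mgl2 (chr11:70130329-70137550, + strand) encodes CD301b, a lectin of dendritic cells and alternatively activated macrophages. It had 12.1, 19.8 and 24.2 TPM with dexamethasone and 7.04, 8.23 and 16.3 TPM with antimiR-155, the highest being AntimiR-155 treated 6, and differed by 0.95 ± 0.17 (adjusted p = 0.00893). Ppp1r3c (chr19:36731731-36736653, - strand), which brings protein phosphatase 1 to glycogen, had 13.5, 15.1 and 16.7 TPM with dexamethasone and 7.52, 10.2 and 13.8 TPM with antimiR-155. AntimiR-155 treated 6 overlapped the dexamethasone range, and the difference was 0.53 ± 0.10 (adjusted p = 0.0128).

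Among the 10 smallest p-values on the higher side were 7 genes that did not pass. Spop, a substrate adaptor of a cullin ubiquitin ligase, had 89.8 to 124 TPM with dexamethasone and 52.0 to 81.0 TPM with antimiR-155 and differed by 0.67 ± 0.14 (adjusted p = 0.0511). Rnf5, a ubiquitin ligase of the endoplasmic reticulum membrane, differed by 0.42 ± 0.09 (adjusted p = 0.0576). Cd209a, a dendritic cell lectin related to DC-SIGN, had 5.08 to 9.39 TPM with dexamethasone and 1.81 to 4.82 TPM with antimiR-155 and differed by 0.71 ± 0.15 (adjusted p = 0.0608). Gyg, for glycogenin, which primes glycogen synthesis, differed by 0.48 ± 0.11 (adjusted p = 0.0732). Ociad2, Sema5b and Nipal2 differed by 0.53, 0.84 and 0.59. Only Nipal2 of these 7 overlapped between the groups.

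Alternative macrophage activation genes had the highest list median, 0.24 over 11 genes, against 0.06 over all genes. On the common-sum scale the list median was 0.16. Of the 11, 1 was called (Mgl2), against 0.0803% of all genes called in either direction. At an unadjusted p under 0.05, 3 were higher, against 5.95% of all genes. Without the 3 libraries of high circular Sftpc, the median of the alternative activation list was 0.17, with 0 called. In that setting 2 were higher at an unadjusted p under 0.05, against 300 of all 17437 genes. Arg1, the arginase of this state, had 3.07, 4.70 and 6.70 TPM with dexamethasone and 2.52, 3.09 and 3.72 TPM with antimiR-155, and differed by 0.44 ± 0.12 (adjusted p = 0.235). Retnla differed by 1.17 ± 0.62 and was spread from 22.2 to 306 TPM within the dexamethasone group. Chil3, another product of these macrophages, differed by 0.24 ± 0.24. Ccl17, a chemokine for Ccr4-bearing T cells, had 16.7 to 36.2 TPM with dexamethasone and 10.1 to 16.2 TPM with antimiR-155, without overlap, and differed by 0.75 ± 0.17 (adjusted p = 0.0948).

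No T cell marker was called in limma on the deposited scale. Of 24 tested, 12 were lower at an unadjusted p under 0.05, against 1.42% of all genes, none was higher, and the median was -0.28. Without the 3 libraries of high circular Sftpc, 12 were lower at that threshold, against 491 of all 17437 genes, and the median was -0.35. On the common-sum scale 1 was called lower, against 32 of all 17437 genes. Ctla4, an inhibitory receptor of activated and regulatory T cells, had 2.69, 3.61 and 5.44 TPM with dexamethasone and 3.92, 5.84 and 6.85 TPM with antimiR-155 and differed by -0.48 ± 0.14 (adjusted p = 0.258). Cd3e, of the T cell receptor complex, differed by -0.32 ± 0.15 and Cd4 by -0.38 ± 0.15. Cd8a of cytotoxic T cells and Foxp3 of regulatory T cells differed by 0.0044 ± 0.16 and 0.018 ± 0.10. Ifng, the type 1 cytokine made by NK and T cells, had 0.865, 1.28 and 2.42 TPM with dexamethasone and 1.62, 2.86 and 3.19 TPM with antimiR-155 and differed by -0.57 ± 0.15 (adjusted p = 0.213). Of 25 type 1 and interferon gamma genes, 4 were lower at an unadjusted p under 0.05, against 1.42% of all genes. The chemokine Cxcl9 differed by -0.09 ± 0.27.

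Of the genes known to respond to glucocorticoids, Hif3a alone was called on the deposited scale, and it was lower with dexamethasone. Fkbp5, a chaperone partner that glucocorticoids induce, had 10.5, 11.4 and 13.8 TPM with dexamethasone and 9.55, 12.9 and 15.4 TPM with antimiR-155. It differed by -0.05 ± 0.17, with a 95% interval of -0.41 to 0.30, and the groups overlapped. Tsc22d3, which encodes the anti-inflammatory protein GILZ, differed by -0.55 ± 0.26 (adjusted p = 0.673), and Per1 by -0.46 ± 0.31. The receptor gene Nr3c1 differed by 0.015 ± 0.097. Of 31 genes tested, 1 was called, against 0.0803% of all genes called in either direction. At an unadjusted p under 0.05, 3 were higher and 4 lower, against 5.95% and 1.42% of all genes. The median was -0.013, against 0.06 over all genes. Mt1, a metal-binding metallothionein, had 87.3, 111 and 120 TPM with dexamethasone and 64.3, 77.9 and 86.2 TPM with antimiR-155, without overlap, and differed by 0.46 ± 0.10 (adjusted p = 0.0789). On the common-sum scale, 2 genes of the list were called higher and 1, Hif3a, lower, against 29 and 32 of all 17437 genes. The 2 were Mt1, at 0.38 (adjusted p = 0.0327), and Angptl4, an inhibitor of lipoprotein lipase, at 0.29 (adjusted p = 0.0413). The last dose was given on day 25 of the 35 days.

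No reported target of miR-155 was called. Of 33 tested, 0 were called in limma, against 0.0803% of all genes. At an unadjusted p under 0.05, 1 was higher (Meis1) and 1 lower (Ctla4), against 5.95% and 1.42% of all genes. The list median was 0.020, against 0.06 over all genes. On the common-sum scale this median was -0.055. Socs1, an inhibitor of cytokine signalling, had 0.378, 0.806 and 1.59 TPM with dexamethasone and 0.374, 0.957 and 1.81 TPM with antimiR-155. It differed by -0.09 ± 0.25, with a 95% interval of -0.60 to 0.42. Inpp5d, the phosphatase SHIP1, differed by -0.11 ± 0.14, and Bach1, a transcription repressor, by 0.12 ± 0.09. Meis1, a homeobox factor, differed by 0.33 ± 0.14 (adjusted p = 0.572).

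Matches to the miR-155-5p seed were searched in the longest 3' UTR of each gene (GENCODE M21, GRCm38). The sites of 3 reported targets are shown, with the 8-base match AGCATTAA in capitals.
Socs1 3' UTR: tgccgctgtgccgcAGCATTAA
Inpp5d 3' UTR: agatgtttttaaaaAGCATTAA
Bach1 3' UTR: tctatgaacagtttAGCATTAA
Of the 33 listed targets, 16 held the 8 bases, and 23 held at least the 7-base match AGCATTA. Over all genes, the median difference was 0.058 for 564 genes with the 8 bases, 0.054 for 1606 with the 7 bases and 0.067 for 15336 without a match. The UTRs of these groups differed in length, with a median of 2754 bases for genes with the 7 bases and 1158 bases without a match. Among genes whose UTR was longer than the median of all, the share lower at an unadjusted p under 0.05 was 0.895% with the 7 bases and 0.828% without a match, and the median differences were 0.053 and 0.062. The median antimiR-155 difference from the sensitized libraries was -0.071 with the 8 bases and -0.078 without a match.

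No gene of the type 2, type 17, mucus, eosinophil, plasma cell or B cell lists was called in limma. Of 20 type 2 immunity genes, 2 were higher and 0 lower at an unadjusted p under 0.05, against 5.95% and 1.42% of all genes. Il13, the cytokine that drives mucus and airway reactivity, had 1.21 to 2.24 TPM with dexamethasone and 1.09 to 2.22 TPM with antimiR-155. It differed by 0.045 ± 0.11, with a 95% interval of -0.17 to 0.26. Il5, which sustains eosinophils, differed by -0.013 ± 0.11. Il17a, the main type 17 cytokine, differed by -0.0008 ± 0.18, with a 95% interval of -0.38 to 0.38. Muc5ac, the induced airway mucin, differed by -0.08 ± 0.20. Jchain, which joins secreted antibodies in plasma cells, had 1230 to 2623 TPM with dexamethasone and 1653 to 3236 TPM with antimiR-155 and differed by -0.20 ± 0.21. In the mature B cell, eosinophil, goblet cell, ciliated cell, endothelial and proliferation lists, no gene passed an unadjusted p under 0.05. Medians of these lists lay between -0.041 and 0.083, and on the common-sum scale between -0.11 and 0.014.

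**Figure D5:**
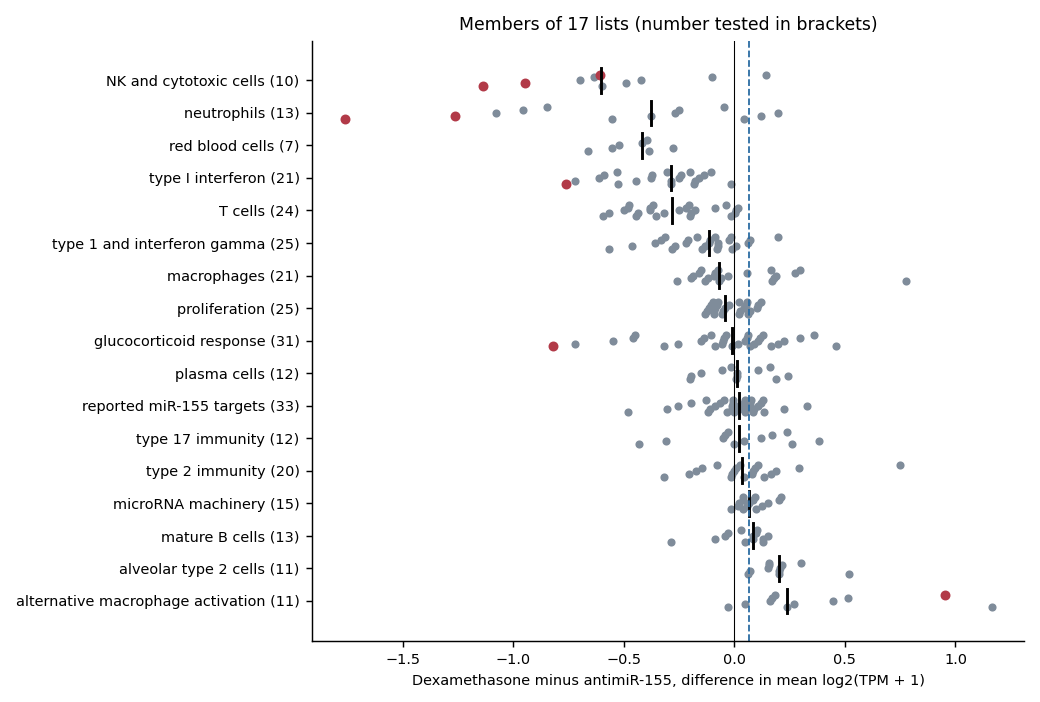
Difference in mean log2(TPM + 1), dexamethasone minus antimiR-155, of each tested member of 17 lists, with the list median as a black bar and the median of all genes (0.06) as a dashed line. Red points passed an adjusted p of 0.05, and the cytotoxic, neutrophil, red blood cell, interferon and T cell lists lie to the left.

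In other families few genes were called. Alveolar type 2 genes had a median of 0.20 over 11 genes, and of 0.11 without the 3 libraries of high circular Sftpc. With all libraries, 2 were higher at an unadjusted p under 0.05, against 5.95% of all genes. The smallest p was that of Cxcl15, a chemokine of lung epithelium, with 720 to 974 TPM against 441 to 724 TPM and a difference of 0.52 ± 0.12 (adjusted p = 0.0986). Of 88 nuclear subunits of oxidative phosphorylation, 13 were higher and 0 lower at an unadjusted p under 0.05, against 5.95% and 1.42% of all genes. Their median was 0.12, which became 0.047 on the common-sum scale. In the Ly6 family of surface proteins, 5 of 14 were lower and 1 higher at that threshold, against 1.42% and 5.95% of all genes. Ly6e, an interferon-responsive member, had 373 to 517 TPM against 475 to 780 TPM and differed by -0.39 ± 0.10 (adjusted p = 0.209). The granzyme family had 4 tested members, of which Gzma and Gzmb were called lower, against 0.0803% of all genes called in either direction. Its summed TPM was 22.7 to 33.9 with dexamethasone and 44.3 to 67.5 with antimiR-155.

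Clock genes divided the antimiR-155 libraries. Dbp, an output gene of the circadian clock, had 35.9 to 49.6 TPM in AntimiR-155 treated 1 to 4 and 3.83 and 3.16 TPM in AntimiR-155 treated 5 and 6, against 4.54 to 11.3 TPM with dexamethasone. Arntl, the clock activator that peaks at the opposite phase, had 5.59 to 10.1 TPM in the first 4 and 19.2 and 21.8 TPM in the other two, against 14.4 to 17.9 TPM with dexamethasone. The groups overlapped for both genes, which differed by -1.43 ± 0.55 (adjusted p = 0.506) and 0.52 ± 0.20 (adjusted p = 0.514). The time of day of lung collection is not given in the sources used here, and its part in the differences between the drugs was not tested. Ngp, Camp, Ifi27l2a, Gzma and Gzmb did not overlap between the groups. By that fact alone they were above all dexamethasone libraries in AntimiR-155 treated 5 and 6 as well as in 1 to 4. This cannot speak to the time of collection. Hlf, another clock output gene, differed by -0.53 ± 0.15 (adjusted p = 0.244).

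Circular RNA, measured by gene symbol without junction positions, gave no call. Of 2271 genes tested in limma, 0 passed an adjusted p of 0.05 (0%), 79 were higher (3.48%) and 42 lower (1.85%) at an unadjusted p under 0.05. A pseudocount of 1 in place of 3.48e-06 also gave 0 calls. The smallest p was that of Sema5a, a semaphorin gene, listed at 3.29 to 5.80 TPM in 6 of 6 dexamethasone libraries and at 0 in 5 of 6 antimiR-155 libraries, with 5.62 TPM in AntimiR-155 treated 5 (adjusted p = 0.455). Pbx3, Ap3s1 and Zfp608 were above 0 in 6, 4 and 5 dexamethasone libraries and in 1, 0 and 1 antimiR-155 libraries. On the lower side, Cpsf6, whose product takes part in cleavage of messenger RNA ends, had 6.93 to 16.0 TPM with dexamethasone and 14.7 to 80.3 TPM with antimiR-155, while its linear RNA differed by 0.025. Rsf1, a chromatin remodelling gene, had 6.96 to 9.38 TPM with dexamethasone and 7.67 to 21.0 TPM with antimiR-155. Cast was listed at 0 in all 6 dexamethasone libraries and above 0 in 4 antimiR-155 libraries, and Slc22a23 and Ide were above 0 in 2 and 2 against 6 and 6. The ratio of circular to linear RNA, tested for 2266 genes, also gave 0 calls. The number of circular genes above 0 was 1496 ± 112 with dexamethasone and 1416 ± 90.9 with antimiR-155 (SD, n = 6 and 6, exact permutation test, two-sided, p = 0.197, adjusted p = 0.684). The smallest p such a test can give is 0.002165.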

How the data were processed

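The deposited values are TPM computed by the authors, in 1 linear and 1 circular table by gene symbol. Per the submitters' processing notes the build was mm10 and CASAVA 1.9 was used. The aligner, quantifier and gene models were not given in the sources used here. The labels give read lengths of 150 and 100 nucleotides, and RNA was stranded and paired-end. TPM keeps no depth. From these values, the 17437 of 21742 linear genes that reached 1 TPM in 5 or more of the 27 libraries were transformed to log2(TPM + 1). They were fitted in 1 model of 4 groups, taken from the labels, with limma 3.58.1 in R 4.3.3 (trended eBayes, two-sided, Benjamini-Hochberg adjustment, 23 residual degrees of freedom). Circular genes above 0 in 5 or more libraries were fitted alike. Scripts were tested on simulated data. With 1 library per mouse, p-values measure the spread between mice. The members, 41 lists and 48 families were chosen with earlier results of these data known, and lists carry counts and medians without a test. Named genes were those past an adjusted p of 0.05, the 10 smallest p-values in each direction, each list's anchors and its smallest p in each direction, and the 5 smallest in each direction for circular RNA. Positions come from GENCODE M21. Alternatives covered scaling, filter, pseudocount, libraries fitted, weights and a replicate block. Taking the circular Sftpc entry out of the total and leaving out 3 libraries were chosen after seeing the data. Immunoglobulin and T cell receptor genes were not analysed here, and some named results are not reported here.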

Additional observations from a re-analysis of the deposited data

Results flagged for a closer look

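Of 38 groups of 6 libraries examined, 5 had an end value whose gap to its neighbour exceeded 0.625 of the range of the group, and chance gives about 1 in 20. Gaps of genes were taken on log2(TPM + 1), and those of whole-library values on the values as given. For Mgl2, AntimiR-155 treated 6 was the highest of its group at 16.3 TPM, with a gap of 0.642 of the log2 range. For Ccl5, Dexamethasone treated 1 was the highest of its group at 111 TPM, with a gap of 0.65 of the log2 range. Dexamethasone treated 4 stood apart in the summed circular TPM, at 240760, and in the share of TPM held by the circular Sftpc entry, at 19.8%, with gaps of 0.658 and 0.689. Dexamethasone treated 3 had 27.9% of the TPM scale outside both tables, with a gap of 0.643.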

How the results depend on the processing

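No result reversed its direction while called. Against 14 calls, there were 103 with median-of-ratios scaling, 112 with quantile normalization, 61 with a common sum, 22 with only the 12 treated libraries, 26 with array weights, 23 with the circular Sftpc entry taken out and 3 without the 3 libraries of high circular Sftpc. Leaving out 1 library gave 9 to 34 calls: 9 without AntimiR-155 treated 5 or Dexamethasone treated 2, 3 or 4, and 34 without AntimiR-155 treated 6. Against 1037 genes higher at an unadjusted p under 0.05, there were 300 without the 3 libraries, and 378 to 1720 leaving out 1. Against 248 lower, there were 949, 910 and 810 under the 3 scalings in the order above, 651 with array weights, 376 with the Sftpc entry taken out, 491 without the 3 libraries, and 177 to 479 leaving out 1. Against 73 genes not overlapping on the higher side, there were 174 with median-of-ratios scaling, 138 with a common sum, 172 without the 3 libraries and 73 to 161 leaving out 1. Against 15 on the lower side, there were 128, 126, 182 and 15 to 44 likewise, 37 with the Sftpc entry taken out and 8 with a filter of 5 TPM. Fewer libraries overlap less often. Circular calls were 0 to 1 and ratio calls 0 to 2 leaving out 1 library, the highest without AntimiR-155 treated 5. Whether same-numbered libraries of the groups share a batch is not given in the sources used here. The correlations of their deviations ran from -0.115 to 0.243, and 1 of 6 dexamethasone libraries correlated best with its own number. These values cannot settle it. With the replicate block in the 12 treated libraries there were 52 calls, against 22 in those libraries without it. At an unadjusted p under 0.05, 1898 genes were higher and 432 lower with the block. Ngp and Camp kept their call in the 23 settings that test them and Ifi27l2a in 24. Gzma, Xkrx, Gzmb and Apol11b lost it only without the 3 libraries (adjusted p 0.059, 0.059, 0.0854 and 0.106). Mgl2 lost it without the 3 libraries and with the replicate block (highest adjusted p 0.059), and Ppp1r3c without the 3 libraries and with only the 12 treated libraries (highest 0.193). Hif3a, Rsad2, Prf1 and Ccl5 lost it in 7, 10, 12 and 13 of 24. TPM keeps no read counts, so what depth limits cannot be stated.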

Other observations

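Olfr772, an olfactory receptor gene, had 18941 ± 1113 TPM with dexamethasone and 18057 ± 2068 TPM with antimiR-155 (SD, n = 6 each), and was singled out after its value was seen. Cardiac muscle genes, which lung carries in its pulmonary veins, ranged from 279 to 458 TPM in sum with dexamethasone and from 172 to 663 TPM with antimiR-155. Circular Rabgef1 had 26.3 to 36.9 TPM with dexamethasone and 17.9 to 23.5 TPM with antimiR-155, and together with Shoc2 it was 1 of 2 genes not overlapping among 465 with circular RNA in all 12 libraries. Both were singled out after their values were seen, and neither passed adjustment.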
